A study of Mus musculus with 24 samples.

Results

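The 10 genes described here belong to the antioxidant response governed by Nrf2: *Nfe2l2*, which encodes Nrf2 itself, and *Nqo1*, *Hmox1*, *Gclc*, *Gclm*, *Srxn1*, *Txnrd1*, *Slc7a11*, *Gsr* and *Osgin1*. They were taken by symbol from the deposited expression table, which lists 49452 genes, and all 10 were found. These genes and the lists used below were chosen with earlier results of these data known. Counts set beside shares of all genes therefore carry no test. RNA had been sequenced from 24 cultures of precursor cells grown from the stromal-vascular fraction (SVF) of adipose tissue, the cells left once the lipid-filled adipocytes are removed. The cells came from male C57BL/6 mice of 6 to 8 weeks, and nothing in the sources used here says which cultures shared an animal, so that p-values measure only the spread between these cultures. The study asked what the long non-coding RNA *H19* does in brown and white precursors.

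The 8 groups hold 3 libraries each. BAT denotes precursors of interscapular brown adipose tissue, which could be pooled from several mice, and vWAT those of visceral white fat, labelled epididymal adipose tissue. In each depot the cells had received a non-targeting control siRNA (siCtrl) or an siRNA against *H19* (siH19) by nucleofection, and they were collected before differentiation (d0) or at day 3 of it (d3). All cells were therefore transfected. The titles call the control libraries siKO and the others siH19_3, which reads as one of the siRNAs numbered in the study, and the groups follow the siRNA field of the labels, which gives non-targeting control and *H19*-targeting. The induction media held insulin, dexamethasone and rosiglitazone, with indomethacin and triiodothyronine named for BAT. IBMX is named for both depots in the labels but for white depots only in the study's methods. From the change of medium on, vWAT cells were kept in rosiglitazone and BAT cells in triiodothyronine. At d3, depot and medium cannot be told apart.

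In resting cells, Nrf2 is bound by Keap1, an adaptor of a Cullin 3 ubiquitin ligase, and is degraded. Oxidants and electrophiles modify cysteines of Keap1, Nrf2 then accumulates, pairs with small Maf proteins and binds antioxidant response elements in the genes of glutathione synthesis, thioredoxin recycling, quinone reduction and heme breakdown. Much of this control acts on the Nrf2 protein, which RNA levels do not show.

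*H19* was checked first. Its mean level was 130.3 FPKM in BAT siCtrl and 4.36 FPKM in BAT siH19 libraries at d0, 89.8 and 13.7 FPKM at d3, 11.7 and 1.21 FPKM in vWAT at d0, and 8.59 and 0.528 FPKM in vWAT at d3. FPKM are fragment counts scaled by transcript length and by the number of mapped fragments of the library. In each of these comparisons the siH19 libraries lay below all siCtrl libraries. Summed FPKM were 710794 to 841456 per library, and 12311 to 13125 genes reached 1 FPKM. Read depth is unknown. The relative depth read from the steps between low values ran from 0.844 to 1.0 in BAT and from 1.039 to 1.193 in vWAT. Genes at 1 FPKM were 12311 to 12657 in BAT and 12980 to 13125 in vWAT. The library names also carry different prefixes in BAT and vWAT, whose meaning is not given. Depot cannot be told apart from these differences, and their part in the depot comparisons was not tested. The labels fit the markers in part. Adipocyte markers such as *Fabp4* rose from d0 to d3 in both depots. *Ucp1*, which defines brown adipocytes, reached 12.1 FPKM in BAT siCtrl at d3 and was listed at 0 in vWAT siCtrl. In siCtrl, the mean sum of 7 brown adipocyte genes rose from 12.2 to 538.8 FPKM in BAT. It also rose in vWAT, from 16.6 to 129.8 FPKM. Precursor markers such as *Pdgfra* stayed detectable at d3. The mean sum of 6 precursor genes fell from 759.9 to 295.1 FPKM in BAT siCtrl. In vWAT siCtrl it rose from 578.2 to 694.5 FPKM, although 4 of the 6 fell. Markers of other cells were present as well: macrophage genes in both depots, and in vWAT genes of the mesothelium, the cell layer that covers visceral fat. In bulk RNA, fewer cells of a type and less RNA per cell cannot be told apart.

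**Figure D1:**
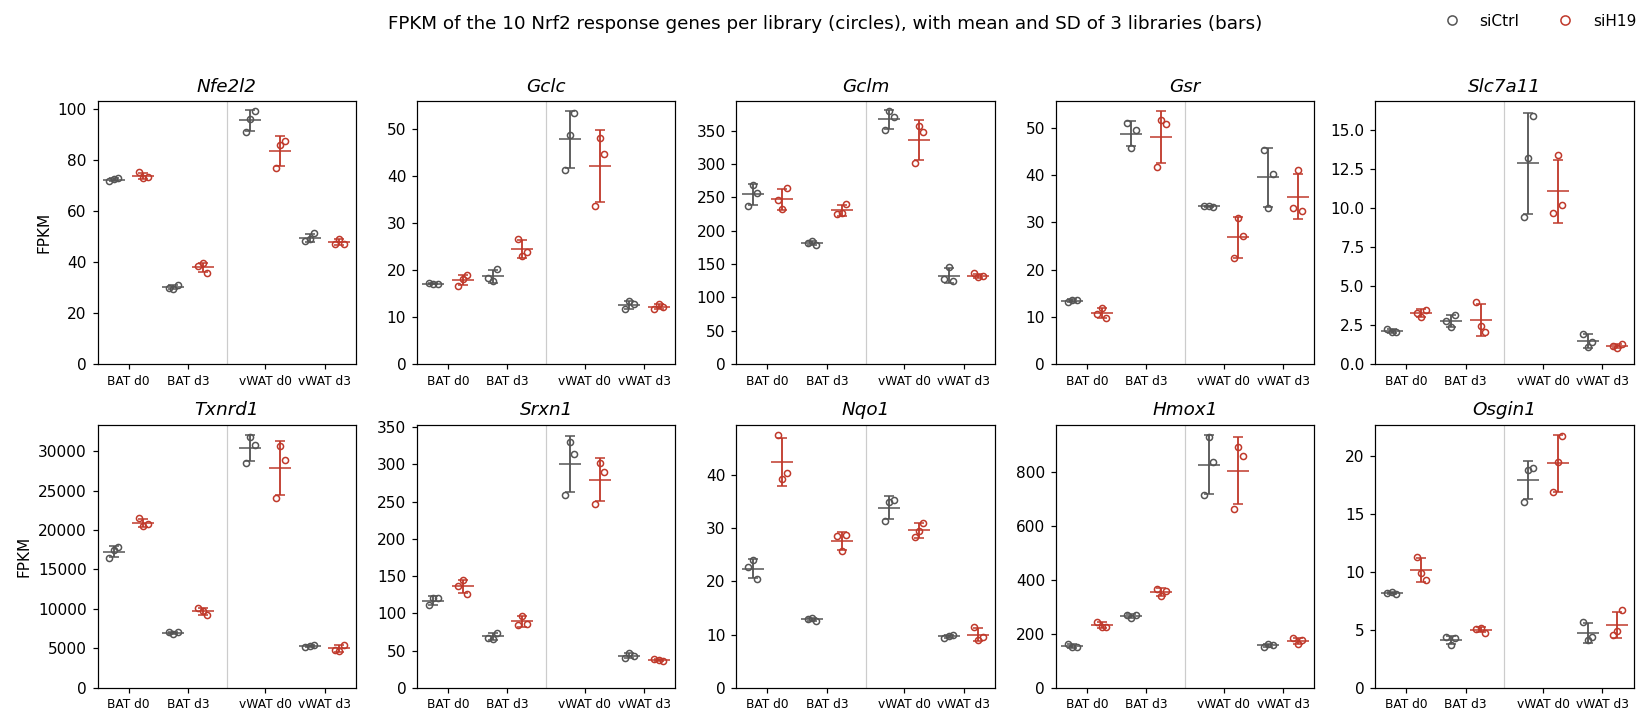
FPKM (linear axes from 0) of each gene in every library, by depot and day, with siCtrl in grey and siH19 in red; circles are libraries and bars the mean ± SD of 3. In 9 of the 10 panels all vWAT d0 siCtrl libraries lie above every other siCtrl library, and in the tenth, *Gsr*, the BAT d3 siCtrl libraries are the highest of the siCtrl libraries.

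The level of *Nfe2l2* was moderate and narrow in range. The 3 siCtrl libraries gave 71.7, 72.5 and 73.1 FPKM in BAT at d0 and 29.8, 29.6 and 31.1 FPKM at d3, against 91.2, 96.4 and 99.4 FPKM in vWAT at d0 and 48.2, 49.0 and 51.4 FPKM at d3. The groups did not overlap, and the order from high to low was vWAT d0, BAT d0, vWAT d3 and BAT d3. Between the highest and the lowest of the 8 group means lay a factor of 3.17.

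Glutathione is made in a first, limiting step by glutamate-cysteine ligase, whose catalytic subunit is encoded by *Gclc* and whose modifier subunit by *Gclm*. *Slc7a11* encodes the transporter that brings in cystine for this synthesis, and *Gsr* the reductase that regenerates reduced glutathione with NADPH. Per length, *Gclm* was the more abundant subunit RNA in every library, at 124.8 to 379.7 FPKM against 11.8 to 53.4 FPKM for *Gclc*. *Slc7a11* was the lowest of the 10 genes, at 1.04 to 15.9 FPKM, and had the widest span, a factor of 11.03 between its highest and lowest group means. *Gsr* spanned 9.83 to 51.7 FPKM.

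*Txnrd1*, thioredoxin reductase 1, was listed at 4700 to 31730 FPKM, which placed it between rank 1 and rank 11 of all genes in each library and gave it 0.562% to 4.22% of the summed FPKM. Other genes for proteins with selenocysteine, an amino acid encoded by a UGA codon, were also listed very high. Of 24 genes whose transcripts carry a selenocysteine mark in the GENCODE annotation, 4 were among the top 12 genes of the table and 8 among the top 100, and the 22 of them that reached a mean of 1 FPKM had a median mean of 783.2 FPKM against 12.3 FPKM for all 13455 genes at that level. What produced these values was not tested. The level of *Txnrd1* is therefore not compared with that of other genes, and only its ratios between libraries are used. *Srxn1*, sulfiredoxin, which restores overoxidised peroxiredoxins, ran from 35.6 to 330.2 FPKM.

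*Nqo1*, a quinone reductase, ran from 8.98 to 47.5 FPKM, and *Osgin1*, an oxidative stress-induced growth inhibitor, from 3.71 to 21.8 FPKM. *Hmox1*, heme oxygenase 1, which splits heme into biliverdin, iron and carbon monoxide, ran from 151.0 to 932.1 FPKM.

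As the table places them on GRCm38, the genes lie on 5 chromosomes. *Nfe2l2* (chr2:75675513-75704641) and *Srxn1* (chr2:152105516-152111376) share chromosome 2, and *Gclm* (chr3:122245557-122270732) and *Slc7a11* (chr3:49892526-50443614) chromosome 3. Chromosome 8 carries *Gsr* (chr8:33652523-33698163), *Hmox1* (chr8:75093621-75100589), *Nqo1* (chr8:107388225-107403206) and *Osgin1* (chr8:119434124-119446256). *Gclc* is at chr9:77754535-77794485 and *Txnrd1* at chr10:82859206-82897724.

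For the promoters, RefSeq windows on build GRCm38.p6 (250 bases before to 50 bases after a start) were at hand for 7 of the 10 genes, in 9 windows, 3 of them for *Txnrd1*. They were searched on both strands for TGACNNNGC, the core of the antioxidant response element. It occurred in 1 window each of 4 genes, and in 12.39% of all 32851 windows. The matches are shown with the core in capitals and 5′ to 3′ on the strand that carries it:
*Nfe2l2*, chr2:75704884-75704913, minus strand: tcagcccaccTGACTCCGCcatgccccgga
*Srxn1*, chr2:152105541-152105570, minus strand: tgtctcactcTGACCTAGCtgcccactgcc
*Gclm*, chr3:122245412-122245441, minus strand: tcgtgagagtTGACGGTGCgcccgggagcg
*Txnrd1*, chr10:82859103-82859132, minus strand: cgtgtcagaaTGACAAAGCaaaaatccagt

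The related palindrome TGANTCA, bound by AP-1 factors, occurred in 7.81% of all windows and in those of 2 of these genes. In *Srxn1* it occurred at 2 places, and in *Osgin1* at 1, again in capitals:
*Srxn1*, chr2:152105412-152105439, plus strand: tcggagggccTGAGTCAccacgctgtgc
*Srxn1*, chr2:152105469-152105496, plus strand: aaattcacccTGAGTCAgcggccgggcg
*Osgin1*, chr8:119437040-119437067, plus strand: gggcccctgcTGACTCAcgcttatgaaa
The windows of *Nqo1* and *Slc7a11* held neither. These are matches of letters in short windows. Binding of Nrf2 was not measured, and known elements can lie further from the start.

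Before differentiation, all 10 genes were lower in BAT than in vWAT siCtrl precursors, against 21% of all 13139 genes tested that were called lower in BAT. A gene is called here at a Benjamini-Hochberg adjusted p under 0.05 in limma over all genes tested and a change of at least 1.3-fold on the log2(FPKM + 1) scale. The 2 groups did not overlap for any of the 10, as was so for 58.8% of all genes. The median difference of the 10 was -1.14 on that scale, beside -0.13 for all genes tested.

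On the log2 scale the difference was widest for *Hmox1*. Its 3 libraries gave 161.8, 151.0 and 151.9 FPKM in BAT and 714.2, 932.1 and 837.1 FPKM in vWAT. BAT thus stood at 18.7% of the vWAT mean, with a difference of -2.40 ± 0.09 (SE, n = 3 and 3; adjusted p = 6.3e-06 in limma). The transporter *Slc7a11* came next, with 2.26, 2.05 and 2.05 FPKM in BAT and 9.43, 13.2 and 15.9 FPKM in vWAT. This is 16.5% of the vWAT mean on the linear scale and a difference of -2.12 (95% interval -2.54 to -1.70). Every vWAT library was above every BAT library, although the vWAT libraries themselves differed by more than those of BAT.

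The other glutathione genes differed by unequal amounts. *Gclc* was at 17.1 ± 0.049 FPKM (mean and SD) in BAT and 47.9 ± 6.07 FPKM in vWAT, a difference of -1.42, while its partner *Gclm* was at 254.4 ± 15.6 and 367.2 ± 14.5 FPKM, a difference of -0.53. *Gsr* was at 40.3% of its vWAT level, with 13.1, 13.6 and 13.6 against 33.5, 33.5 and 33.2 FPKM. In both thioredoxin genes the same direction was seen, with *Srxn1* at 39.0% and *Txnrd1* at 56.9% of the vWAT mean. *Osgin1* stood at 45.8%, *Nqo1* at 66.0% and *Nfe2l2*, the smallest difference with -0.40, at 75.7%.

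Over all genes, more were called lower (2753) than higher (1343) in BAT at d0. When the libraries were rescaled by a trimmed mean, the median of all genes moved from -0.13 to -0.02 and the split became 1974 lower and 1823 higher. Of the 10 genes, 9 kept their call, and *Nfe2l2* with -0.27 fell below 1.3-fold. Marker lists moved with the depot too. All 6 mesothelial genes were called lower in BAT, with a summed level of 5.14 to 5.92 FPKM in BAT and 194.6 to 223.7 FPKM in vWAT. Of the 12 macrophage genes, 10 were lower in BAT, with sums of 146.3 to 185.4 and 354.9 to 397.4 FPKM. Their part in the result was not tested. In BAT, *Upk3b* and *Upk1b*, 2 defining mesothelial genes, were listed at 0 in siCtrl at d0.

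**Figure D2:**
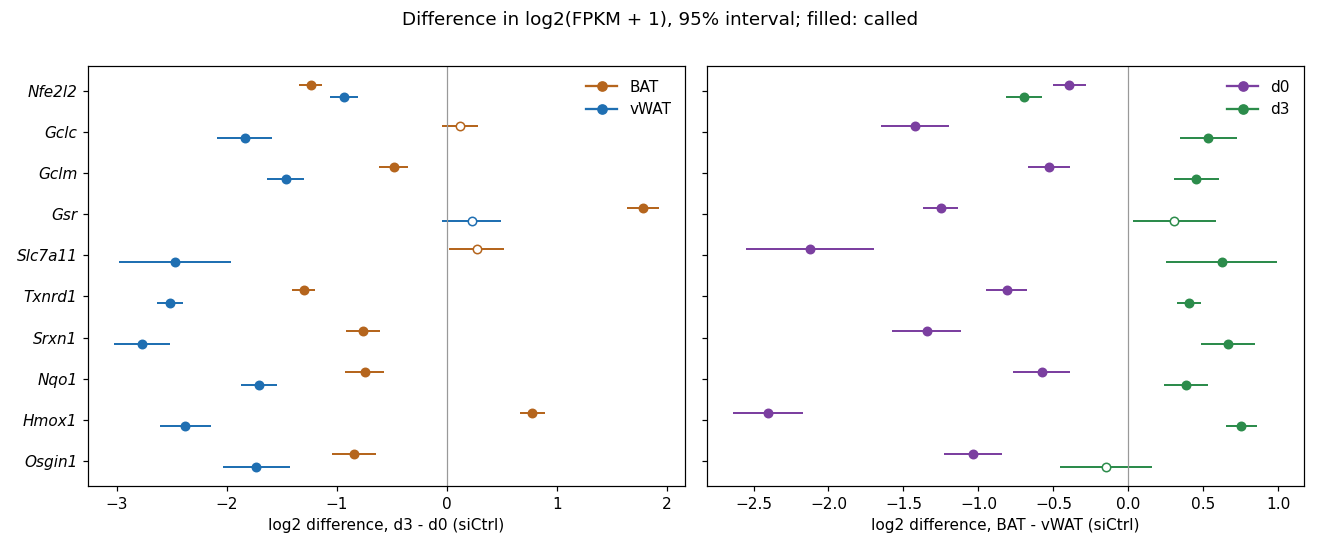
Differences in log2(FPKM + 1) between siCtrl groups, each point a fitted difference with its 95% interval and filled where called; left, d3 minus d0 in BAT and vWAT, right, BAT minus vWAT at d0 and d3. On the right, all 10 points at d0 lie left of 0 and 8 of those at d3 lie right of it.

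The comparisons of siCtrl cells by depot and by day share libraries, so that their values are given side by side and are not independent of each other. During differentiation of vWAT cells, 9 of the 10 genes fell, where 23.9% of all 13368 genes tested fell. The median change of the 10 was -1.78, beside 0.01 for all genes. On the log2(FPKM + 1) scale *Srxn1* changed most, by ratio *Slc7a11*. *Srxn1* went from 258.7, 330.2 and 313.2 FPKM at d0 to 39.8, 46.6 and 43.0 FPKM at d3, which is 14.4% of the start and a change of -2.77 ± 0.10 (SE, n = 3 and 3; adjusted p = 1.8e-06 in limma). *Txnrd1* fell to 17.5% and *Slc7a11* to 11.5% of the d0 mean, the latter from 9.43, 13.2 and 15.9 FPKM to 1.95, 1.07 and 1.41 FPKM.

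*Hmox1* fell from the 714.2 to 932.1 FPKM given above to 152.0, 162.7 and 158.8 FPKM, to 19.1% of its d0 mean. *Gclc* and *Osgin1* were both left at 26.4%, *Nqo1* at 28.5%, *Gclm* at 36.1% and *Nfe2l2* at 51.8%. *Gsr* did not pass the test. Its libraries gave 33.5, 33.5 and 33.2 FPKM at d0 and 45.4, 33.1 and 40.2 FPKM at d3, and they overlapped. For 9 of the 10 genes the days did not overlap, as was so for 71.2% of all genes.

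In the siH19 cells of vWAT, which form a separate set of 6 libraries, the same 9 genes were called lower, with a median of -1.68, where 24.5% of all genes fell. There *Gsr* was called higher, as were 28.2% of all genes, from 26.8 ± 4.3 to 35.5 ± 4.8 FPKM, a change of 0.39 with an adjusted p of 0.041 in limma. That call was lost when any of 4 of the 6 libraries was left out (siH19 d0 replicates 1 and 3, siH19 d3 replicates 1 and 2; adjusted p for *Gsr* 0.059 to 0.11). The mesothelial genes fell over the same days: in siCtrl 5 of 6 were lower at d3, and their sum went from 194.6 to 223.7 FPKM down to 53.8 to 62.4 FPKM. The macrophage sum went the other way, from 354.9 to 397.4 up to 623.9 to 675.6 FPKM, with 6 genes higher and 4 lower of 12. Of the 6 precursor genes 4 were lower and 1 higher, while their sum went from 547.8 to 605.4 up to 664.2 to 744.2 FPKM. All 7 adipocyte genes were higher. The part of these cells in the fall of the 9 genes was not tested.

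Differentiating BAT cells gave a mixed picture. In siCtrl, 6 of the 10 genes fell and 2 rose, where 35.3% of all 13001 genes fell and 29.9% rose. All 10 genes had separate days, as did 79.3% of all genes. *Nfe2l2* fell most but for *Txnrd1*: to 41.7% and 40.6% of the d0 mean, with changes of -1.24 and -1.30. *Osgin1* fell from 8.21, 8.29 and 8.14 to 4.42, 3.71 and 4.29 FPKM, and *Srxn1*, *Nqo1* and *Gclm* were left at 58.8%, 57.7% and 71.4%.

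The 2 genes that rose were *Gsr* and *Hmox1*. *Gsr*, the glutathione reductase, went from 13.1, 13.6 and 13.6 FPKM to 50.9, 45.8 and 49.5 FPKM, a factor of 3.63 and a change of 1.78 ± 0.06 (SE; adjusted p = 3.4e-07 in limma). *Hmox1* went from 161.8, 151.0 and 151.9 FPKM to 270.8, 257.9 and 270.8 FPKM, a factor of 1.72. Every d3 library was above every d0 library for both. *Gclc* (0.12, 95% interval -0.04 to 0.27) and *Slc7a11* (0.27, 95% interval 0.03 to 0.51) were not called.

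The siH19 cells of BAT showed 5 genes lower and 3 higher, beside 29.8% and 30.8% of all genes. *Gsr* rose 4.46-fold, *Hmox1* 1.53-fold and *Gclc* 1.37-fold. *Nfe2l2*, *Txnrd1*, *Srxn1*, *Nqo1* and *Osgin1* fell. *Gclm*, called in siCtrl, was not called here, with 232.9 to 264.2 FPKM at d0 and 225.4 to 240.6 FPKM at d3. Over these days in BAT siCtrl, all 6 precursor genes fell and all 7 adipocyte genes rose, and of 9 macrophage genes tested 2 rose and 5 fell, whose part was not tested.

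The change with differentiation therefore differed between the depots, which was tested as an interaction over the 12 siCtrl libraries. All 10 genes passed at an adjusted p under 0.05, against 53% of all 14111 genes. The interaction term was positive, that is, the change in BAT was higher than in vWAT, for 9 genes, with *Hmox1* (3.15), *Slc7a11* (2.74) and *Srxn1* (2.01) at the top, where 24.9% of all genes were called in that direction. For *Nfe2l2* it was negative (-0.30, 95% interval -0.43 to -0.17), since *Nfe2l2* fell more in BAT. *Nfe2l2* was the only gene of the 10 with a term in this direction. Marker lists passed the same test: 7 of 7 adipocyte, 5 of 7 brown adipocyte and 4 of 6 mesothelial genes with a higher change in BAT, and 8 of 12 macrophage and 5 of 6 precursor genes with a lower one. Their part in the result was not tested.

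At d3 the order of the depots had turned for most of the genes. In siCtrl cells 7 of the 10 were higher in BAT, where 16.5% of all 13120 genes were, and 1, *Nfe2l2*, was lower, where 32.1% were. *Hmox1* was at 270.8, 257.9 and 270.8 FPKM in BAT and 152.0, 162.7 and 158.8 FPKM in vWAT, a ratio of 1.69. *Slc7a11* had a ratio of 1.89 at levels of only 2.78 ± 0.39 and 1.47 ± 0.45 FPKM, and *Srxn1* one of 1.597 with 68.9 ± 4.5 and 43.1 ± 3.4 FPKM. The ratios of *Gclc*, *Gclm*, *Nqo1* and *Txnrd1* lay between 1.32 and 1.48.

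*Nfe2l2* was at 29.8, 29.6 and 31.1 FPKM in BAT and 48.2, 49.0 and 51.4 FPKM in vWAT, so that BAT had 61.0% of the vWAT level at d3. *Gsr* (0.31, adjusted p = 0.05 in limma) and *Osgin1* (-0.15, 95% interval -0.45 to 0.15) were not called. For 9 of the 10 genes the depots did not overlap at d3, as for 70.4% of all genes. After rescaling, the all-gene median went from -0.16 to -0.04 and the split from 2162 higher and 4216 lower to 2801 higher and 3372 lower. *Gsr* was then called too (0.44). The call of *Nqo1* (0.38) sat at the 1.3-fold limit, and without BAT siCtrl d3 replicate 1 or 2 or vWAT siCtrl d3 replicate 1 it fell below it (0.36 to 0.38). Macrophage genes were still lower in BAT at d3, 11 of 11 tested, with a sum of 152.3 to 184.2 FPKM against the vWAT values above. Their part in these differences was not tested. All 7 adipocyte genes were higher and 5 of 6 precursor genes lower in BAT at d3, whose part was not tested either.

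**Figure D3:**
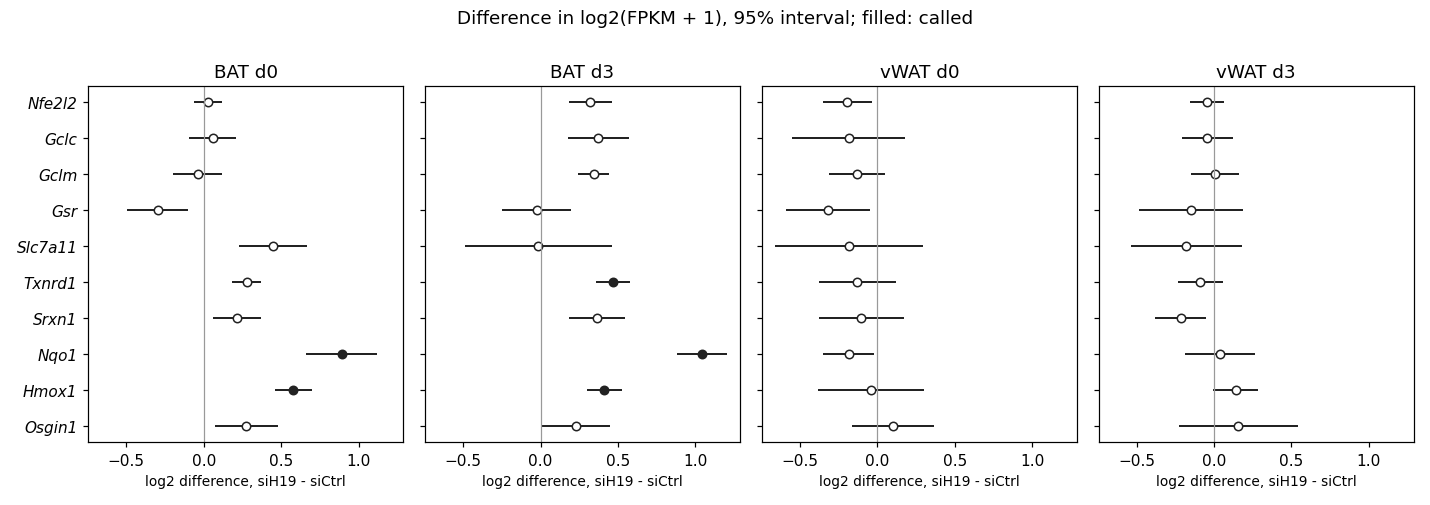
Difference between siH19 and siCtrl in log2(FPKM + 1) for each gene in the 4 pairs of groups, with 95% intervals and filled points where called. In BAT, *Nqo1* and *Hmox1* are filled on both days and *Txnrd1* at d3, and no point is filled in vWAT.

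With *H19* silenced, a few of these genes were higher in BAT and none passed the test in vWAT. All siH19 libraries carry the same siRNA name in their titles. Loss of *H19* and any other effect of that siRNA cannot be told apart here. At d0 in BAT, 2 of the 10 genes rose, *Nqo1* and *Hmox1*, where 0.617% of all 12651 genes rose and 1.94% were called in either direction. *Nqo1* gave 22.6, 23.98 and 20.4 FPKM in siCtrl and 47.5, 39.1 and 40.4 FPKM in siH19 libraries, a ratio of 1.90 and a difference of 0.89 ± 0.09 (SE, n = 3 and 3; adjusted p = 0.018 in limma). *Hmox1* gave 161.8, 151.0 and 151.9 against 244.8, 225.3 and 226.1 FPKM, a ratio of 1.498 (0.58, adjusted p = 0.0098 in limma). Both were higher in 3 of 3 siH19 libraries than in any siCtrl library.

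For 7 of the 10 genes the siRNA groups did not overlap at d0, which was so for 26.7% of all genes, but only these 2 passed. Without BAT siCtrl d0 replicate 2 or replicate 3, no gene of the 10 was called, and without BAT siCtrl d0 replicate 1 or BAT siH19 d0 replicate 3 only *Hmox1* was. Where the calls were lost, the differences were 0.83 to 0.94 for *Nqo1* and 0.56 to 0.57 for *Hmox1*. Over all genes, leaving out any 1 of the 6 libraries left 4 to 74 calls in place of 245, with 14 and 4 in the settings without a called gene of the 10. *Txnrd1* passed the adjusted p (0.026 in limma) at 0.28, below the minimum fold, so that 3 of the 10 were higher with no minimum fold, beside 1.19% of all genes. *Slc7a11* had a ratio of 1.53 from 2.12 to 3.25 FPKM with an adjusted p of 0.055 in limma, and *Gsr* was at 80.1% (-0.30, adjusted p = 0.1 in limma). At d0, 3 of 9 macrophage genes tested were lower in siH19 cells, with sums of 108.9 to 111.6 FPKM against 146.3 to 185.4 FPKM in siCtrl, and 5 of 7 adipocyte genes were lower. Their part in the result was not tested.

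At d3 in BAT, 3 of the 10 rose, where 6.39% of all 12500 genes rose and 8.57% were called either way. *Nqo1* gave 12.96, 13.07 and 12.59 FPKM in siCtrl and 28.6, 25.6 and 28.6 FPKM in siH19 libraries. This ratio of 2.14 was the largest of the 10 (1.04 ± 0.06, SE; adjusted p = 0.0013 in limma). *Txnrd1* was listed at 7122, 6871 and 7022 against 10120, 9781 and 9175 FPKM, a ratio of 1.38, and *Hmox1* at 270.8, 257.9 and 270.8 against 368.0, 339.2 and 358.7 FPKM, a ratio of 1.33.

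For these genes no siH19 library overlapped a siCtrl library, as in 8 of the 10 genes and 37.2% of all genes. The rise of *Hmox1* was close to the minimum fold and fell under it after rescaling (0.36), which also turned the split of all called genes from 799 higher and 272 lower to 625 and 414. Without a minimum fold, 7 of the 10 passed, all higher, where 10.6% of all genes were higher by that rule. The added 4 were *Nfe2l2*, *Gclc*, *Gclm* and *Srxn1*, with ratios of 1.26 to 1.31. *Nfe2l2* gave 29.8, 29.6 and 31.1 against 38.5, 39.5 and 35.9 FPKM. Without BAT siCtrl d3 replicate 3, *Gclc* and *Srxn1* also passed the minimum fold, for 5 genes in all.

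*Gsr* (-0.03, 95% interval -0.24 to 0.19), *Slc7a11* (-0.01, 95% interval -0.48 to 0.45) and *Osgin1* (0.23, 95% interval 0.01 to 0.44) were not called at d3. The 3 siH19 libraries of *Slc7a11* alone spread from 2.04 to 3.97 FPKM. The median of the 10 genes was 0.35, beside 0.05 for all genes. At d3, 5 of 8 macrophage genes tested were lower in siH19 cells, with a sum of 90.8 to 105.1 FPKM against 152.3 to 184.2 FPKM in siCtrl. Of the precursor genes 3 of 4 tested were higher, with sums of 495.1 to 527.0 against 277.4 to 315.9 FPKM, and 4 of 7 brown adipocyte genes were lower. The part of these differences in the result was not tested.

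In vWAT, siH19 moved none of the 10 genes past the test. At d0, 1.53% of all 13063 genes were called, at d3 only 0.0305% of 13097, which are 4 genes. In limma at an unadjusted p under 0.05 stood *Nfe2l2*, *Gsr* and *Nqo1* at d0, all lower, and *Srxn1* (lower) and *Hmox1* (higher) at d3. *Nqo1* gave 31.4, 34.8 and 35.3 FPKM in siCtrl and 28.3, 29.5 and 31.0 FPKM in siH19 libraries at d0, and 9.31, 9.79 and 9.84 against 11.3, 8.98 and 9.58 FPKM at d3. At d3 its difference was 0.04 with a 95% interval of -0.18 to 0.26, which does not reach the value seen in BAT. The siRNA groups did not overlap in 3 of the 10 genes at d0 (24.5% of all genes) and in 1 at d3 (16.2%). Among all genes at d0, 157 were lower and 43 higher, or 129 and 61 after rescaling.

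The difference between the depots in the siH19 effect at d3 was tested as an interaction over 12 libraries. It passed for 7 of the 10 genes, all in the direction of a higher effect in BAT, against 10.5% of all 13762 genes in either direction and 7.02% in that one. *Nqo1* had the largest term (1.005, 95% interval 0.76 to 1.25), followed by *Srxn1* (0.58), *Txnrd1* (0.56), *Gclc* (0.42), *Nfe2l2* (0.37), *Gclm* (0.34) and *Hmox1* (0.27). Rescaling turned the split of all called genes from 966 higher and 485 lower to 634 and 755, and left 5 of the 10 genes called. *Gclc* (0.35) and *Hmox1* (0.20) lost their calls there, and each also lost it when single libraries were left out. This was so for *Gclc* with any 1 of 7 of the 12 libraries (BAT siCtrl replicates 1 and 2, BAT siH19 replicate 1, vWAT siCtrl replicates 2 and 3, vWAT siH19 replicates 1 and 3; 0.36 to 0.41) and for *Hmox1* with any 1 of 9 (all 3 BAT siCtrl replicates, BAT siH19 replicates 1 and 3, and replicates 2 and 3 of both vWAT groups; 0.22 to 0.29). Of the macrophage genes 6 of 11 had a lower, and of the precursor genes 3 of 6 a higher siH19 effect in BAT. It was lower for 5 of 7 adipocyte and 4 of 7 brown adipocyte genes. The part of these lists was not tested.

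Whether the siH19 effect in BAT grew from d0 to d3 was tested over the 12 BAT libraries. It passed for *Nfe2l2* (0.29) and *Gclm* (0.38), against 9.06% of all 13575 genes. Rescaling removed both calls (0.19 and 0.28) and brought a call in the other direction for *Hmox1* (-0.27), with all called genes changing from 1058 higher and 172 lower to 529 and 321. *Nqo1* (0.15, 95% interval -0.10 to 0.41) was not called, so a different effect of siH19 on *Nqo1* between the days was not shown. In vWAT the same test passed for none of the 10, with 1.73% of 13948 genes called and no member at an unadjusted p under 0.05.

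**Figure D4:**
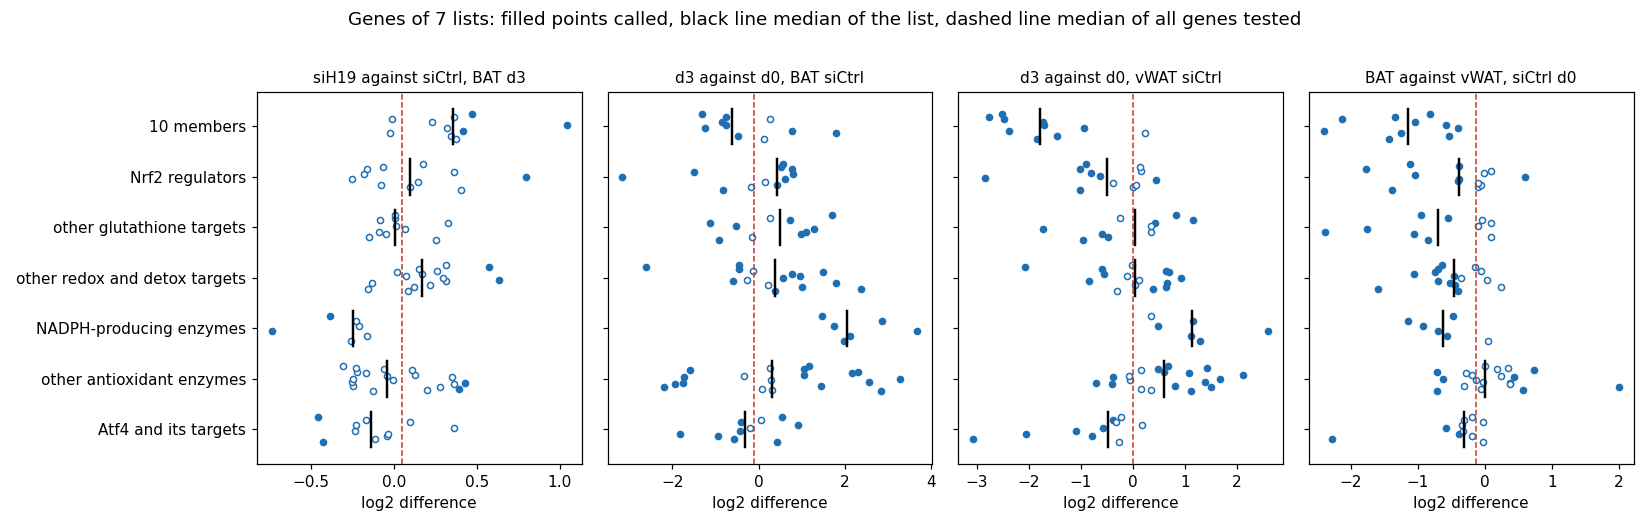
Differences in log2(FPKM + 1) for every tested gene of 7 lists in 4 comparisons; each point is a gene, filled where called, the black line is the median of the list and the dashed red line that of all genes tested. In the third panel the median of the 10 genes lies at -1.78, left of the medians of the 6 other lists.

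The partners and regulators of Nrf2 were followed in a list of 13 genes. At d0, 7 of 13 were lower in BAT siCtrl than in vWAT siCtrl and 1 was higher, beside 21% and 10.2% of all genes. Among the lower ones were the repressor *Keap1* (16.0 and 21.2 FPKM), *Bach1*, which competes for the same elements (7.92 and 22.3 FPKM), the autophagy receptor *Sqstm1*, which binds Keap1 and is itself a target of Nrf2 (259.1 and 566.0 FPKM), and the small Maf gene *Mafg* (18.3 and 38.4 FPKM). *Maff*, another small Maf gene, was higher in BAT (153.1 and 100.8 FPKM).

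With differentiation, the list split by depot. In vWAT siCtrl 6 of 12 tested fell and 1, *Keap1*, rose, while in BAT siCtrl 3 of 11 fell and 6 rose, *Keap1* and *Sqstm1* among them. Over all genes, 23.9% fell and 26.3% rose in vWAT, and 35.3% fell and 29.9% rose in BAT. *Sqstm1* went to 301.4 FPKM in vWAT and to 386.5 FPKM in BAT. *Maff* fell in both depots, to 13.3 and 16.3 FPKM. After silencing of *H19*, the only list member called in any of the 4 pairs of groups was *Maff* in BAT at d3, with 16.3 FPKM in siCtrl and 29.1 FPKM in siH19 cells (0.79, adjusted p = 0.0015 in limma). That is 1 of the 11 tested in BAT at d3, where 6.39% of all genes were called higher and 8.57% either way. *Keap1* had 25.02 and 20.85 FPKM there and was not called.

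Other genes commonly listed as Nrf2 targets followed the 10 genes in some comparisons and not in others. In BAT against vWAT siCtrl at d0, 6 of 10 tested genes of glutathione use and 10 of 15 of redox balance and detoxification were lower and none was higher, with medians of -0.70 and -0.47, where 21% of all genes were lower. *Gsta3*, a glutathione transferase, gave 15.04 and 82.65 FPKM, and *Prdx1*, a peroxiredoxin, 705.2 and 1466 FPKM. In the differentiation of vWAT siCtrl cells they divided, with 3 higher and 4 lower of 10 (median 0.05), and 6 higher and 4 lower of 15 (median 0.04), beside 26.3% higher and 23.9% lower over all genes. *Gsta4*, a transferase for lipid peroxidation products, fell from 28.8 to 8.07 FPKM, while *Gstm4* rose from 6.94 to 16.8 FPKM and the ferritin subunit *Fth1* from 2461 to 4698 FPKM.

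In BAT siCtrl, 5 of 10 and 8 of 15 of these genes rose with differentiation and 3 and 4 fell, beside 29.9% and 35.3% of all genes. *Mgst1*, a microsomal transferase, rose from 559.8 to 1832 FPKM, and *Ugdh*, which makes the sugar donor of glucuronidation, fell from 490.2 to 79.9 FPKM. After siH19 in BAT, 1 of 10 glutathione genes was called at d0 (*Gsta4*, 7.86 and 13.7 FPKM) and none at d3. Of the 15 redox and detoxification genes none was called at d0 and 2 were at d3, both higher, beside 6.39% of all genes: *Ugdh* (79.9 and 119.2 FPKM) and the epoxide hydrolase *Ephx1* (52.9 and 82.4 FPKM). In vWAT none of these 2 lists was called after siH19 on either day.

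A list of 6 genes tied to the supply of NADPH, which *Gsr* and other enzymes consume, was also followed. With differentiation 6 of 6 rose in BAT siCtrl (median 2.05) and 5 of 6 in vWAT siCtrl (median 1.14), where 29.9% and 26.3% of all genes rose. Malic enzyme 1, *Me1*, went from 44.3 to 577.6 FPKM in BAT. Its level was lower after siH19 in BAT at d3 (345.5 FPKM), as was that of transketolase, *Tkt* (213.7 and 163.1 FPKM), 2 of 6 in all, beside 2.18% of all genes.

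Antioxidant enzymes outside the Nrf2 lists, 19 in all, gave 9 higher and 5 lower in BAT siCtrl and 11 higher and 3 lower in vWAT siCtrl from d0 to d3. The shares over all genes were 29.9% higher and 35.3% lower in BAT, and 26.3% higher and 23.9% lower in vWAT. *Prdx3*, a mitochondrial peroxiredoxin, rose from 45.7 to 446.7 FPKM in BAT. ATF4, a factor of the amino acid stress response, also activates *Slc7a11*. Of 10 genes listed for it, 6 fell in vWAT siCtrl, among them the stress gene *Atf3* (29.4 to 2.72 FPKM) and *Chac1*, which degrades glutathione (16.5 to 3.20 FPKM). In BAT siCtrl 5 of the 10 fell and 3 rose, beside the same 35.3% and 29.9% of all genes.

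**Figure D5:**
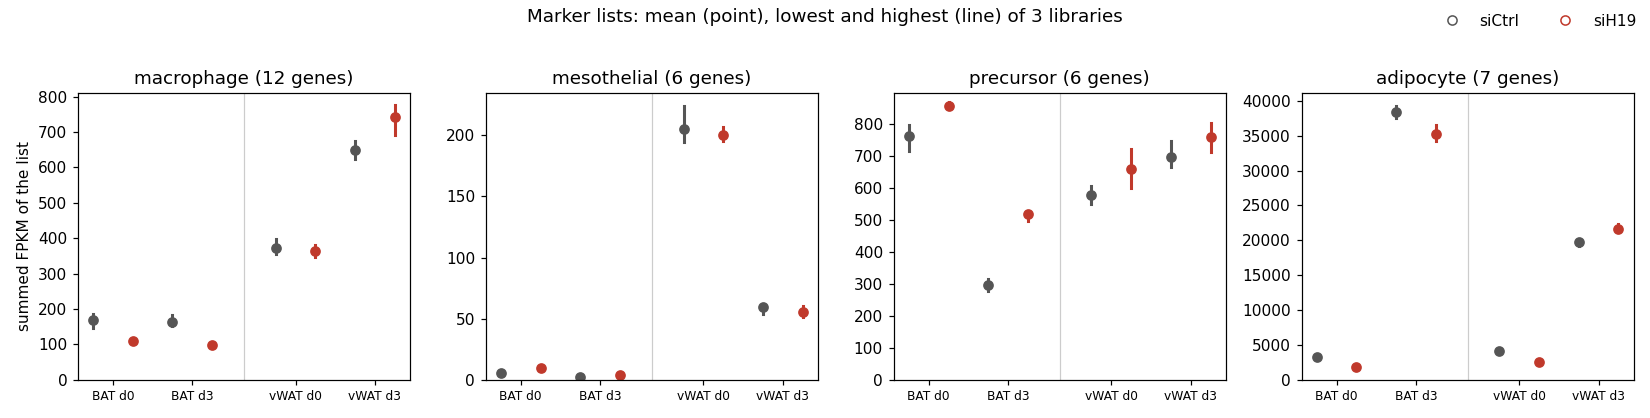
Summed FPKM of 4 marker lists in each group (linear axes from 0; siCtrl grey, siH19 red), with the mean as a point and the lowest and highest of 3 libraries as a line. The mesothelial sum is near 0 in BAT and falls in vWAT from d0 to d3, and the macrophage sum is lower after siH19 in BAT on both days.

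Across the 8 group means of log2(FPKM + 1), the correlation of each gene with the mean standardized profile of the other 9 was 0.97 for *Srxn1*, 0.96 for *Slc7a11*, 0.95 for *Gclc*, 0.94 for *Gclm*, 0.90 for *Txnrd1* and *Osgin1*, 0.88 for *Hmox1*, 0.75 for *Nqo1* and 0.66 for *Nfe2l2*. *Gsr* stood apart with -0.32. These values describe 8 points, which share libraries between genes, and carry no test. The mean standardized level of the 10 genes was 1.24 in siCtrl and 1.06 in siH19 cells of vWAT at d0. In all other groups it was -0.88 to 0.11, so that the correlations largely restate the higher level in vWAT at d0. Outside the 10 genes, the profiles most like their mean among 13445 genes were those of *Clec7a* (r = 0.996, at 0.23 to 5.16 FPKM), *Esd* (0.99, 291.0 to 755.9 FPKM), *Gmfb*, *Mbtps2* and *Zfp131* (0.98 each). *Clec7a* encodes a receptor of myeloid cells, and *Esd* an esterase. The genes compared had a mean of at least 1 FPKM over the 24 libraries. *Clec7a* passed that limit only through vWAT at d0, with 5.16 FPKM in siCtrl and 3.77 FPKM in siH19. Elsewhere its group means were 0.23 to 1.31 FPKM, near the floor. Over 0.9 lay 1.38% of the genes compared.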

How the data were processed

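Per the study's methods, the authors aligned the RNA-seq reads to GRCm38 with TopHat2 and used Cufflinks (2.0.10 and 2.2.1 in the submitters' processing notes, which also list STAR), and deposited 1 table of values per Ensembl gene, without counts. The table names no unit, and the deposited values were read as FPKM, the unit that the paper uses. The paper describes single-end and the labels paired-end reads. FPKM share the library total, so that a few abundant genes can shift all others. Values were transformed to log2(FPKM + 1), which understates changes of low genes. Genes with at least 1 FPKM in at least 3 libraries of a comparison were fitted with limma 3.58.1 (R 4.3.3, intensity trend, two-sided), on 6 libraries per pair of groups or 12 per interaction. Pairs were called at an adjusted p under 0.05 (Benjamini-Hochberg) and 1.3-fold, interactions without a minimum fold. Ratios are those of mean FPKM. The pairwise fit was tested on simulated data for siH19 against siCtrl in BAT at d3, and the interaction fit for depot and siRNA at d3. The other comparisons were not simulated. The 10 genes and the lists were chosen with earlier results of these data known. Named genes were the 10, *H19*, the Nrf2 regulators, up to 2 called genes each way per other list, markers, and the 5 most similar profiles. All columns were used (0 left out), and replicate libraries correlated at 0.988 to 0.991. Plots used Python 3.11.15 with matplotlib 3.10.9. Alternatives were another pseudocount (0.1), no filter, no minimum fold, a trimmed-mean scaling, 1 fit on all 24 libraries, a replicate block and leaving out each library. Promoter windows for *Hmox1*, *Gsr* and *Gclc* were not used here.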

Additional observations from a re-analysis of the deposited data

Results flagged for a closer look

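In siCtrl cells the change from d0 to d3 differed between BAT and vWAT for all 10 genes, as it did for 53% of all genes, by an interaction test in limma over 12 libraries. On the log2(FPKM + 1) scale, the change in BAT minus that in vWAT was 3.15 for *Hmox1*, 2.74 for *Slc7a11*, 2.01 for *Srxn1*, 1.95 for *Gclc*, 1.56 for *Gsr*, 1.21 for *Txnrd1*, 0.98 for *Gclm*, 0.96 for *Nqo1*, 0.88 for *Osgin1* and -0.30 for *Nfe2l2*.

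At d3 the difference between siH19 and siCtrl cells differed between the depots for 7 genes, all higher in BAT. Of all genes 10.5% passed in either direction and 7.02% in that one. BAT minus vWAT was 1.005 for *Nqo1*, 0.58 for *Srxn1*, 0.56 for *Txnrd1*, 0.42 for *Gclc*, 0.37 for *Nfe2l2*, 0.34 for *Gclm* and 0.27 for *Hmox1*. Trimmed-mean scaling ended the calls of *Gclc* and *Hmox1*. So did leaving out any 1 of 7 libraries for *Gclc* and any 1 of 9 for *Hmox1*. The level of *H19* itself was 89.8 FPKM in BAT and 8.59 FPKM in vWAT siCtrl cells at d3.

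In BAT the difference between siH19 and siCtrl cells was higher at d3 than at d0 for *Nfe2l2* (0.29) and *Gclm* (0.38), beside 9.06% of all genes in either direction. Trimmed-mean scaling ended both calls (0.19 and 0.28). In the same test 5 of 7 adipocyte and 3 of 6 precursor genes were called higher and 3 of 7 brown adipocyte genes lower, whose part was not tested. Remaining *H19* differed between these days, at 3.35% of siCtrl at d0 and 15.3% at d3.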

How the results depend on the processing

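Leaving out 1 library, *Nfe2l2*, *Nqo1*, *Gsr* and *Gclc* each lost a call in a depot or day comparison (adjusted p 0.0022 to 0.11 in limma; the first, second and last through the minimum fold only), and under the alternatives run the counts of called genes there stayed at 9 or 10 in vWAT over days, 8 or 9 in BAT over days, 9 or 10 between depots at d0 and 7 to 9 at d3, and 10 for the interaction of depot and day. The siH19 calls in BAT varied more. At d0 the count of 2 became 1 with no filter on low FPKM (*Nqo1*, adjusted p = 0.053 in limma), and leaving out 1 library gave 0 to 2. At d3 the count of 3 became 7 with no minimum fold, and leaving out 1 library gave 3 to 5. The interaction of day and siRNA in BAT went from 2 genes to 1, another gene, after trimmed-mean scaling. The cause was not tested. Replicate numbers were not treated as pairs. Same-numbered libraries deviated together with r of only -0.143 to 0.088, which cannot show whether cultures shared an animal. With a replicate block, 0 genes were called in BAT at d0 and 4 for the interaction of depot and siRNA at d3, and over all genes 2 in place of 245 were called in BAT at d0. The *H19* level in vWAT missed the adjusted p with the block at d0 (-2.56) and at d3 (-2.68), and at d3 also with no filter (-2.68) and with a pseudocount of 0.1 (-3.95). Leaving out 1 library gave -2.87 to -2.57 at d3, and without vWAT siH19 d3 replicate 1 (-2.59) the adjusted p was missed as well. Signs turned only for uncalled differences and only when 1 library was left out, which gave -0.0877 to 0.0033 for *Gclm* in BAT at d0, -0.0384 to 0.071 for *Gclm* in vWAT at d3, -0.0795 to 0.0702 for *Gsr* in BAT at d3, -0.1459 to 0.0909 for *Hmox1* in vWAT at d0, -0.0507 to 0.1027 for *Nqo1* in vWAT at d3 and -0.2212 to 0.1344 for *Slc7a11* in BAT at d3. The interactions of depot and siRNA ranged from -0.0468 to 0.2081 for *Osgin1* and -0.0426 to 0.313 for *Slc7a11*, and that of day and siRNA in BAT from -0.1074 to 0.0258 for *Osgin1*. Read depth is unknown, so levels near 1 FPKM, as of *Slc7a11* in vWAT at d3, have no counting interval.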
